A study of Homo sapiens with 25 samples.

Results

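Iron handling was followed in hiF-T cells through 10 genes for ferritin, heme breakdown, iron uptake, iron export and iron sensing. The genes were chosen by name from the 58302 genes counted, namely FTH1, FTL, NCOA4, HMOX1, BLVRB, TFRC, SLC11A2, SLC40A1, IREB2 and ACO1, by a rule that uses no measured value. All 10 were counted in every library and passed the filter on low counts in every comparison. hiF-T is a human fibroblast-like line made from BJ skin fibroblasts, and per the labels all cells carried inducible hTERT on a WT genotype. In the sort set, 20 libraries came from untreated cells, with 4 biological replicates each of ungated, low, midlow, midhigh and high dye cells. The design text describes this sort as one by proliferation status. In the drug set, 5 libraries came from cells under LSD1 inhibition (replicates 1 and 2), DOT1L inhibition (replicate 1), DMSO (replicate 1) or no drug (replicate 2), with no compound, dose or time given in the labels.

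Ferritin is a shell of heavy (FTH1) and light (FTL) chains in which cells store iron, and NCOA4 carries it to the lysosome when the iron is needed. Transferrin receptor (TFRC) and the metal transporter DMT1 (SLC11A2) bring iron in, and ferroportin (SLC40A1) is the iron exporter. Heme oxygenase (HMOX1) breaks down heme and frees its iron. Biliverdin reductase B (BLVRB), grouped with HMOX1 here as a heme breakdown gene, reduces biliverdin and flavins. The iron regulatory proteins encoded by ACO1 and IREB2 sense iron and bind RNA hairpins called iron-responsive elements. When iron is low, this binding blocks translation from the ferritin and ferroportin messages and slows the decay of the TFRC message. Transcription of FTH1, FTL and HMOX1 is also driven by the oxidant-responsive factor NRF2 and held down by the heme sensor BACH1.

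The hairpins that join these genes into one circuit are printed here because they set storage and export apart from uptake. They were read from the GENCODE release 29 transcripts (GRCh38) by a rule that asks for a C, 5 bases, the loop CAGNGN and 5 bases that pair with the first 5 in reverse, with G-T pairs allowed. Only the transcript strand was searched. Capitals mark the bulged C and the 6-base loop.
FTH1, 5′ UTR, chr11:61967574-61967602, minus strand: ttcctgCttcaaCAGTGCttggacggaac
FTL, 5′ UTR, chr19:48965335-48965363, plus strand: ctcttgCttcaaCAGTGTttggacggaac
SLC40A1, 5′ UTR, chr2:189580661-189580689, minus strand: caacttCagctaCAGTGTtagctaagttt
TFRC, 3′ UTR, chr3:196050463-196050491, minus strand: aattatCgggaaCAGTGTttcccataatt
TFRC, 3′ UTR, chr3:196050510-196050538, minus strand: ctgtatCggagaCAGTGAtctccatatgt
TFRC, 3′ UTR, chr3:196050575-196050603, minus strand: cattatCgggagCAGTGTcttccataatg
TFRC, 3′ UTR, chr3:196050979-196051007, minus strand: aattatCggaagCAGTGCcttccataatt
TFRC, 3′ UTR, chr3:196051029-196051057, minus strand: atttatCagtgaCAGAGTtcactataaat
Both ferritin genes and SLC40A1 had 1 match each in the 5′ UTR, and TFRC had 5 in the 3′ UTR. By the same rule 570 of 19684 protein-coding genes (2.90%) had a match in a UTR, against 4 of the 10 genes here. These 4 are the genes named above as bound by the iron regulatory proteins, so their share is no test of the set. A match is a description of the letters only, and the absence of one, as in SLC11A2, says no more than that these letters were not found.

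Each library held 15015039 to 20030093 gene counts, and levels are given as CPM, counts scaled to a common total of gene counts with TMM. A count of 0 allows for up to 3 counts, or 0.150 to 0.200 CPM, for counting error only. Among fibroblast markers COL1A1, COL1A2, VIM and FN1 were abundant in all 25 libraries (lowest 1620 CPM), while LUM (0.626 to 28.4 CPM) and DCN (0.801 to 41.0 CPM) were low in some and THY1 did not exceed 1.72 CPM. The sum of the 9 fibroblast markers was 17465 to 19136 CPM in low, 19752 to 21124 in midlow, 22861 to 28470 in midhigh and 21541 to 29647 in high dye cells, and its part in the results was not tested. The summed markers of myeloid cells reached at most 4.07 CPM and those of erythroid cells 5.20 CPM. Among the erythroid markers EPOR was at 2.01 to 5.20 CPM, while the globin genes HBA1, HBA2 and HBB reached at most 0.0634 CPM. Summed keratinocyte, endothelial and melanocyte markers reached at most 3.02, 5.14 and 3.16 CPM. The summed level of 12 proliferation genes moved with the gates, at 3014 to 3446 CPM in low, 2908 to 3249 in midlow, 1579 to 2727 in midhigh and 1269 to 2557 in high dye cells, and its part in the results was not tested.

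Between the outer gates, both ferritin chains, both heme breakdown genes and the exporter SLC40A1 were higher in high dye cells, and none of the 10 genes was called lower. Ferritin rose to about the same extent in both chains, 2.72-fold for FTH1 and 2.52-fold for FTL. HMOX1 showed the largest fold of the 10 (4.09) and the widest spread. TFRC stood at 0.833 times its low dye level and missed the threshold. These 5 calls among 10 genes stand beside 17.7% called among all 14592 genes tested, and the median log2 fold change was 0.40 over the 10 genes and 0.01 over all genes. The count was 3 without high dye replicate 3 or without low dye replicate 3. Since the RNA is from bulk samples, more cells that express a gene and more RNA per cell cannot be told apart.

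FTL encodes the light chain (ENSG00000087086, chromosome 19 from 48965301 to 48966878, GRCh38). It stood at 3085, 1872, 2491 and 1348 CPM in high dye replicates 1 to 4, against 969, 689, 964 and 873 CPM in low dye replicates 1 to 4. All 4 high dye libraries lay above all 4 low dye libraries, with replicate 4 the lowest of the high dye group. Between these gates FTL was at 1161, 844, 1208 and 914 CPM in midlow dye and at 1924, 1188, 1996 and 1161 CPM in midhigh dye. Ungated cells, with 1536, 1161, 1179 and 1076 CPM, lay wholly above low dye cells and overlapped both middle gates and high dye cells. Group means were 874 ± 131 in low, 1032 ± 180 in midlow, 1567 ± 455 in midhigh and 2199 ± 753 CPM in high dye (SD, n = 4 each), and neighbouring gates overlapped. The log2 fold change of high over low dye was 1.33 ± 0.23 (SE), with an adjusted p of 0.00131 (edgeR quasi-likelihood F test, Benjamini-Hochberg over all genes), and it was higher in 4 of 4 same-numbered pairs.

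FTH1 encodes the heavy chain, which oxidises iron for storage (ENSG00000167996, chromosome 11 from 61959718 to 61967660). Its level was 344, 187, 262 and 156 CPM in high dye replicates 1 to 4, against 89.8, 73.4, 108 and 78.4 CPM in low dye replicates. Here too the groups did not overlap, and replicate 1 was the highest and replicate 4 the lowest of the high dye libraries. Midlow dye cells had 112, 75.6, 112 and 76.3 CPM, and midhigh dye cells had 194, 137, 212 and 104 CPM. Ungated cells had 146, 128, 77.2 and 107 CPM. Ungated replicate 3 was the lowest of that group and lay below its own low dye library, whereas its FTL level did not. The log2 fold change of high over low dye was 1.44 ± 0.26 (adjusted p 0.00179 in edgeR), higher in 4 of 4 pairs.

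The FTH1 count cannot be read as an absolute level. Of the 2030 bases of its merged exons in GENCODE release 29, 1267 (62.4%) also belong to BEST1 on the opposite strand, and the library kit named in the labels does not mark strand. A counter that ignores strand sets reads on shared bases aside as ambiguous, and the setting used is not given in the sources used here. BEST1 itself held 232 counts over all 25 libraries. In addition 25 pseudogenes are named after FTH1, of which 21 held counts, and they took 5.93% to 11.4% of the summed counts of FTH1 and its pseudogenes. For FTL the share was 0.186% to 0.359%. With the pseudogene counts added, the log2 fold changes stayed at 1.44 for FTH1 and 1.33 for FTL. The log2 ratio of FTH1 to FTL CPM averaged -3.21 ± 0.09 in high dye and -3.32 ± 0.15 in low dye cells (SD, n = 4 each), and the 2 ranges overlapped. Because of the shared exons it is no measure of the ratio of the chains.

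NCOA4, the cargo receptor for the breakdown of ferritin (ENSG00000266412, chromosome 10 from 46005088 to 46030714), was at 225, 218, 247 and 225 CPM in high dye and at 178, 187, 210 and 198 CPM in low dye replicates 1 to 4. The groups did not overlap, although the difference was small next to that of ferritin. Its log2 fold change of 0.24 ± 0.09 missed the threshold (adjusted p 0.0819 in edgeR). The replicate numbers of the sort set pair the libraries, and with the replicate number as a block NCOA4 passed at an adjusted p of 0.00252.

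**Figure D1:**
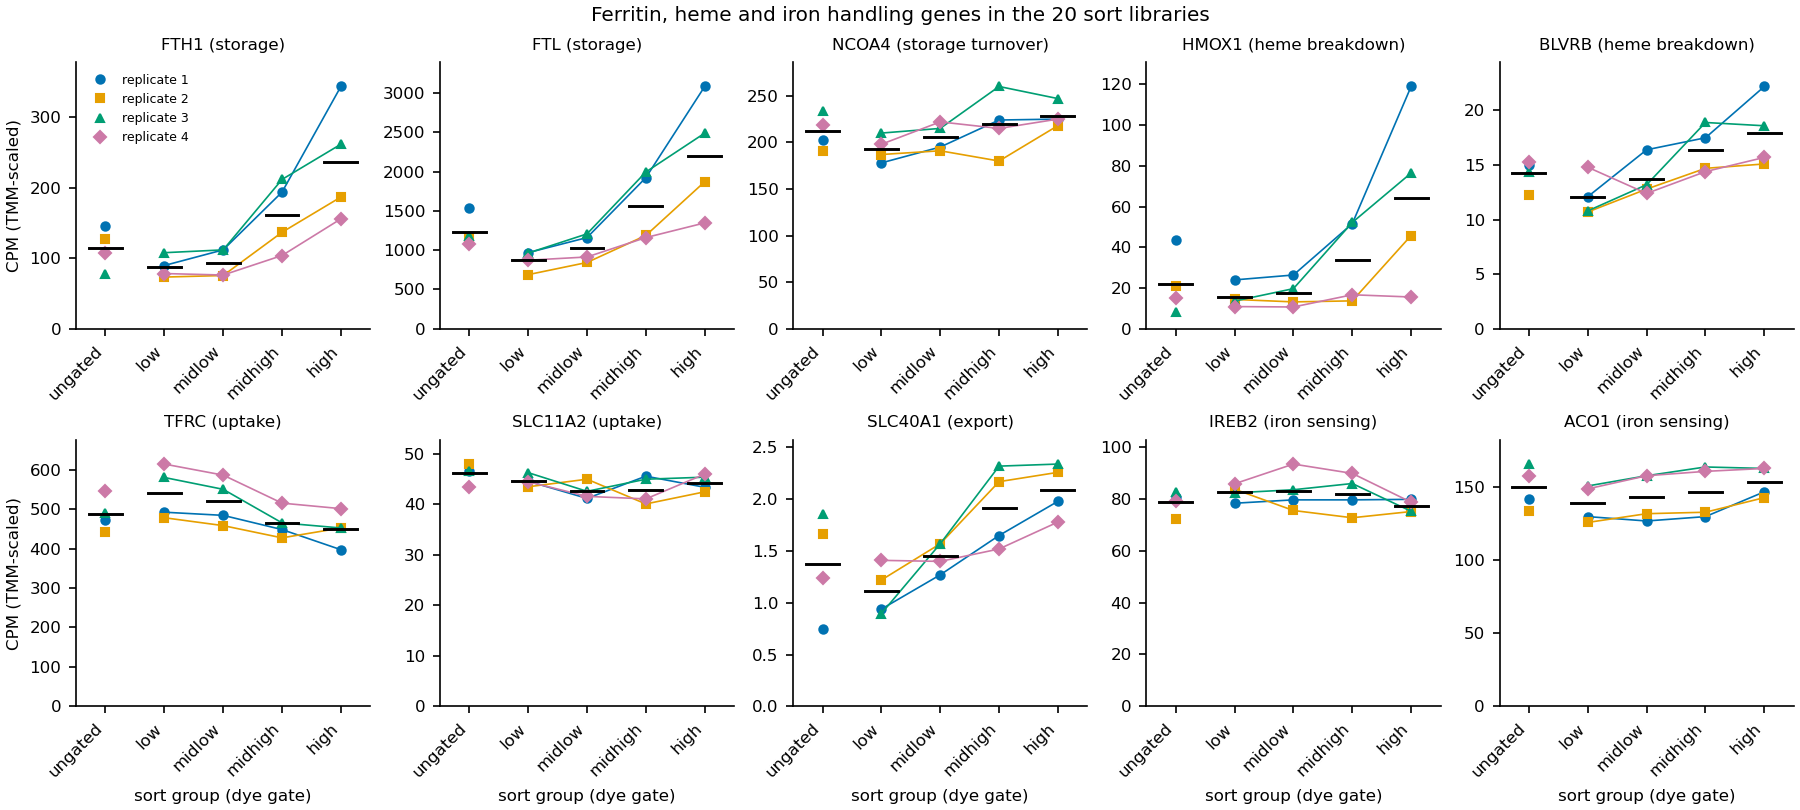
TMM-scaled CPM of the 10 genes (y axes, linear, from 0) by sort group (x axes), with 1 symbol per library, lines joining the gated libraries of a replicate number and black bars at the group means. FTL climbs over the gates in every replicate number and FTH1 in all but replicate 4, where midlow dye (76.3) lies below low dye (78.4), with means of 237 and 2199 CPM in high dye, against 87.4 and 874 CPM in low dye, TFRC slopes down, and SLC11A2 stays between 40.1 and 48.0 CPM.

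Both heme breakdown genes rose in high dye cells. HMOX1, the enzyme that opens the heme ring (ENSG00000100292, chromosome 22 from 35380361 to 35394214), stood at 119, 45.8, 76.5 and 15.6 CPM in high dye replicates 1 to 4, against 24.0, 14.4, 13.6 and 10.9 CPM in low dye replicates. Every replicate was higher in its high dye library, but the groups overlapped because high dye replicate 4 lay below low dye replicate 1. Midhigh dye cells split in the same manner, with 51.6 and 52.2 CPM in replicates 1 and 3 and 13.7 and 16.7 CPM in replicates 2 and 4. The log2 fold change was 2.03 ± 0.57 (adjusted p 0.0199 in edgeR). On groups alone this call rested on single libraries. The adjusted p was 0.0884 without high dye replicate 1 (log2 fold change 1.54) and 0.0562 without high dye replicate 3. It was 0.0558 without low dye replicate 3 and 0.06 without low dye replicate 4. With the replicate block HMOX1 was called higher (1.86 ± 0.32, adjusted p 1.1e-04 in edgeR), but libraries were left out only in the fit on groups alone.

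BLVRB, which reduces biliverdin and flavins (ENSG00000090013, chromosome 19 from 40447765 to 40465840), had 22.2, 15.1, 18.6 and 15.7 CPM in high dye, against 12.1, 10.7, 10.8 and 14.8 CPM in low dye replicates 1 to 4. The lowest high dye library (15.1) lay just above the highest low dye library (14.8). The log2 fold change was 0.56 ± 0.14 (adjusted p 0.0101 in edgeR), higher in 4 of 4 pairs.

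The uptake genes did not pass the test on groups alone. TFRC (ENSG00000072274, chromosome 3 from 196027183 to 196082189) stood at 397, 452, 452 and 501 CPM in high dye replicates 1 to 4, against 492, 478, 580 and 614 CPM in low dye replicates. Each high dye library was below its same-numbered low dye library, but the groups overlapped, as high dye replicate 4 lay above low dye replicates 1 and 2. The log2 fold change was -0.26 ± 0.10 with an adjusted p of 0.0781 in edgeR. With the replicate block it was called lower (adjusted p 4.6e-04), and without high dye replicate 4 it was called without the block (-0.32, adjusted p 0.0439). SLC11A2, the transporter that moves iron out of endosomes (ENSG00000110911, chromosome 12 from 50979401 to 51028566), averaged 44.3 ± 1.66 CPM in high dye, against 44.7 ± 1.15 CPM in low dye (SD, n = 4 each), a log2 fold change of -0.01 ± 0.06 (adjusted p 0.908).

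SLC40A1, the only known cellular iron exporter (ENSG00000138449, chromosome 2 from 189560579 to 189583758), was the least abundant of the 10 genes. It had 1.98, 2.26, 2.34 and 1.78 CPM in high dye replicates 1 to 4, against 0.939, 1.22, 0.896 and 1.41 CPM in low dye replicates. The groups did not overlap, and the low dye libraries stood well above the limit that 3 counts set. The log2 fold change of 0.90 ± 0.24 passed the test (adjusted p 0.0158 in edgeR). On groups alone the adjusted p was 0.0548 without high dye replicate 3, 0.0539 without low dye replicate 3 and 0.0535 with no filter on low counts. With the replicate block SLC40A1 was called higher (0.90 ± 0.22, adjusted p 0.00268 in edgeR).

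The iron sensors did not pass the test. IREB2, which encodes IRP2 (ENSG00000136381, chromosome 15 from 78437431 to 78501456), averaged 77.2 ± 2.37 CPM in high dye, against 82.5 ± 3.17 CPM in low dye (SD, n = 4 each, log2 fold change -0.10 ± 0.07, adjusted p 0.388). ACO1, which encodes the cytosolic aconitase that becomes IRP1 when it loses its iron-sulfur cluster (ENSG00000122729, chromosome 9 from 32384603 to 32454769), averaged 154 ± 10.5 CPM in high dye, against 139 ± 12.8 CPM in low dye (SD, n = 4 each, log2 fold change 0.15 ± 0.10, adjusted p 0.33). ACO1 was higher in 4 of 4 pairs and passed with the replicate block (adjusted p 0.0134). With the block 7 of the 10 genes were higher and 1 lower, beside 37.2% called among all genes.

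**Figure D2:**
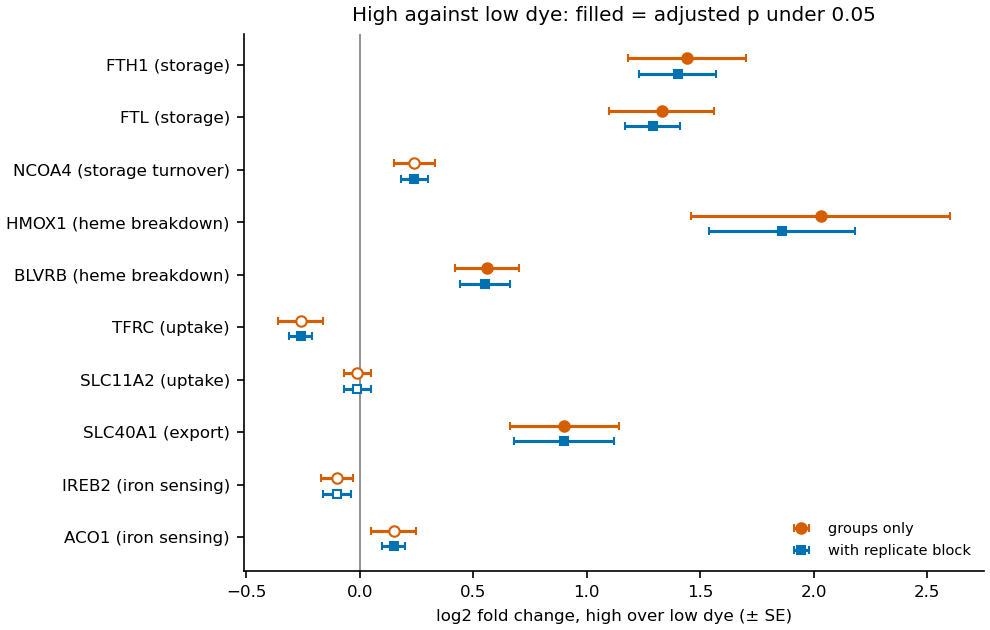
Log2 fold change of high over low dye (x axis) with standard errors for the 10 genes, from the fit on groups only (orange circles) and with the replicate block (blue squares), where filled symbols have an adjusted p under 0.05. The estimates of both fits lie close together, and TFRC, NCOA4 and ACO1 are filled only with the block.

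Set against each other in the same library, ferritin outweighed TFRC more in each higher gate. The log2 ratio of summed FTH1 and FTL CPM to TFRC CPM averaged 0.82 ± 0.22 in low, 1.11 ± 0.28 in midlow, 1.85 ± 0.47 in midhigh and 2.37 ± 0.65 in high dye cells, and 1.46 ± 0.30 in ungated cells (SD, n = 4 each). Within each of the 4 replicate numbers the ratio was larger at each successive gate, without an exception. The mean of high minus low dye was 1.55, and it ranged from 1.30 to 1.81 when 1 library was left out. These ratios are a description and carry no test, and most of the difference came from ferritin, whose fold changes were several times that of TFRC.

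**Figure D3:**
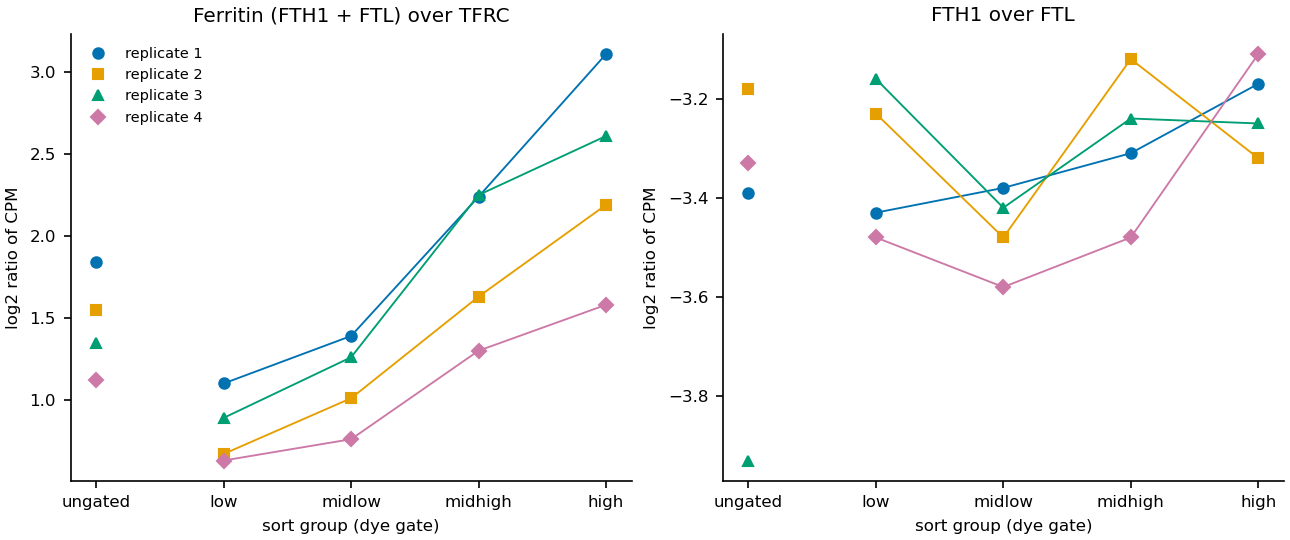
Log2 ratio of summed ferritin CPM to TFRC CPM (left) and of FTH1 to FTL CPM (right) in each of the 20 sort libraries by sort group, with lines joining the gated libraries of a replicate number. The left ratio climbs in every replicate number, to 3.11, 2.19, 2.61 and 1.58 in high dye replicates 1 to 4, while the right ratio shows no common slope and ungated replicate 3 (-3.93) has the lowest value.

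A straight line over the 4 gates, in equal steps from low to high, used the 16 gated libraries. By this trend 6 of the 10 genes were higher and 1 lower with increasing dye, beside 26.2% called among all 14419 genes tested. Per gate step FTH1 changed by 0.51 ± 0.08 (adjusted p 4.3e-04), FTL by 0.46 ± 0.07 (4.1e-04), HMOX1 by 0.71 ± 0.16 (0.00371), SLC40A1 by 0.31 ± 0.06 (0.00205) and BLVRB by 0.19 ± 0.04 (0.00385) on the log2 scale, in edgeR. The storage, heme breakdown and export genes thus had slopes of the same sign, and the receptor had the other. TFRC sloped down by -0.10 ± 0.03 per step (adjusted p 0.0301), a call that was lost without high dye replicate 1 (0.0713), high dye replicate 3 (0.0565), low dye replicate 3 (0.0615) or low dye replicate 4 (0.0887). NCOA4 sloped up by 0.08 ± 0.03 (adjusted p 0.0387). Its call was lost without high dye replicate 1 (0.0608) or 3 (0.107), low dye replicate 1 (0.0975), 2 (0.0773) or 4 (0.0585), midlow dye replicate 1 (0.0549) or 2 (0.0522), or midhigh dye replicate 1 (0.0516), and with no filter on low counts (0.114). With the replicate block ACO1 was also called higher (adjusted p 0.00898), which made 7 higher and 1 lower beside 43.8% of all genes.

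The inner gates gave no call. Between midhigh and midlow dye 0 of the 10 genes and 0% of all genes passed edgeR's test, while 2 of the 10 and 1891 of all genes had an unadjusted p under 0.05, and DESeq2 called 0 of the 10 and 128 of all genes. FTH1 averaged 162 ± 50.1 CPM in midhigh and 94.0 ± 20.8 CPM in midlow dye (log2 fold change 0.78 ± 0.25, adjusted p 0.223), and FTL 1567 ± 455 against 1032 ± 180 CPM (0.60 ± 0.22, adjusted p 0.276). With the replicate block FTH1 (adjusted p 0.00691) and FTL (0.00498) were called higher and TFRC lower (-0.16, 0.0478), beside 10.8% of all genes. Without a filter on low counts FTH1 was called (0.0266), beside 99 of 38399 genes.

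Against ungated cells, high dye cells had more ferritin RNA in each pair, but no gene of the 10 passed, beside 0.00685% of all genes. FTH1 averaged 237 ± 83.6 CPM in high dye, against 115 ± 29.6 CPM in ungated cells (SD, n = 4 each), or 2.07-fold (log2 fold change 1.05 ± 0.25, adjusted p 0.3 in edgeR), FTL 1.78-fold (0.83 ± 0.22, 0.332) and HMOX1 2.91-fold (1.54 ± 0.56, 0.393), each higher in 4 of 4 pairs. In all, 5 of the 10 genes and 1543 of all 14592 genes had an unadjusted p under 0.05. DESeq2 called FTH1 (adjusted p 0.0424), 1 of 15 called among all genes. With the block FTH1 (0.00307), FTL (0.00122) and HMOX1 (0.0129) were called, beside 7.59% of all genes. The same 3 genes were called without a filter on low counts, at 2.6e-04, 0.00309 and 0.0288, beside 25 of 38399 genes.

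Low dye cells against ungated cells also gave 0 calls among the 10 genes, beside 0.0754% of all genes, and DESeq2 called 0 of the 10. An unadjusted p under 0.05 was found for 1 of the 10 genes and 1898 of all 14592 genes. The 1 of the 10 was FTL, at 874 ± 131 CPM in low dye and 1238 ± 204 CPM in ungated cells, a log2 fold change of -0.50 ± 0.22 (adjusted p 0.352 in edgeR). All 4 low dye libraries were below all 4 ungated libraries. With the block FTL was called lower (adjusted p 0.01), beside 10.8% of all genes.

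Levels were compared between genes per kilobase of merged exons, in ungated cells. FTL led with 1410 CPM per kb. TFRC (61.8), NCOA4 (51.9) and ACO1 (19.8) followed, then HMOX1 (9.14), BLVRB (8.45), IREB2 (7.28) and SLC11A2 (4.56), and SLC40A1 was last at 0.318 CPM per kb. FTH1 came to 56.4 CPM per kb over all its exons and to 150 CPM per kb over the 763 bases that it does not share with BEST1, so its place in this order is not fixed.

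Over the 20 sort libraries, the 5 genes whose log2 CPM followed FTH1 most closely among 8914 genes were FTL (Pearson r 0.96), SQSTM1 (0.93), SPP1 (0.93), EPHX1 (0.92) and PSAP (0.92). Of the other genes studied here, HMOX1 (0.90) and BLVRB (0.80) also followed FTH1, SLC40A1 (0.50) and NCOA4 (0.52) did so loosely, and TFRC ran the other way (-0.63). TFRC was most like PAK2 (0.97), NCEH1 (0.97), RABGGTB (0.95), AHCTF1 (0.95) and ABCE1 (0.95). These values are a description, and the points share the gates and the replicate numbers.

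Other genes of iron and heme metabolism and of the pathways around them changed in part. Of 98 such genes in 10 lists, 78 were tested between the outer gates, and 15 were higher and 3 lower in high dye, or 23.1% beside 17.7% of all genes. Of the 15 higher genes, 3 were NRF2 targets without a known role in iron and 6 were in ferritin turnover and the lysosome. The pooled share is therefore not one for iron and heme genes alone. Their median log2 fold change was 0.11, and with the replicate block 28 were higher and 8 lower, beside 37.2% of all genes called. By the trend over the gates 21 were higher and 6 lower, or 34.6% beside 26.2% of all genes. The list for ferritin turnover and the lysosome held the largest share of calls, with 6 of 10 genes higher and a median of 0.38. It included SQSTM1, a selective autophagy receptor, at 300 ± 115 CPM in high dye cells, against 103 ± 16.6 CPM in low dye cells (SD, n = 4 each, log2 fold change 1.55 ± 0.27, adjusted p 0.00148 in edgeR), the lysosomal protease CTSD (0.72 ± 0.17, 0.00775) and the ubiquitin ligase NEDD4L (0.65 ± 0.21, 0.0361).

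Among 10 NRF2 targets without a known role in iron, 3 were higher and 0 lower, beside 17.7% of all genes called, with a median of 0.52. With the replicate block 9 were higher, beside 37.2% of all genes. Those called on groups alone included SRXN1, which repairs peroxiredoxins (0.72 ± 0.22, adjusted p 0.0321), and the quinone reductase NQO1 (0.54 ± 0.15, 0.0164). NRF2 itself (NFE2L2, 0.18 ± 0.13, adjusted p 0.366), its inhibitor KEAP1 (0.04 ± 0.09, 0.81) and BACH1 (0.09 ± 0.16, 0.75) did not pass. By the trend over the gates NFE2L2 passed only with the replicate block (0.06 ± 0.02 per step, adjusted p 0.0323 in edgeR).

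In iron-sulfur cluster assembly 2 of 13 genes were higher and 1 lower (23.1%, beside 17.7% of all genes called), with a median of 0.08. FDXR, the reductase that supplies electrons for this pathway and for steroid synthesis and a known p53 target, was at 30.5 ± 9.05 CPM in high dye, against 12.9 ± 1.08 CPM in low dye (1.24 ± 0.18, adjusted p 5.5e-04), and the scaffold ISCU rose by 0.58 ± 0.11 (0.00238). Of 9 uptake and transport genes only LRP1, a receptor that takes up heme bound to hemopexin among many ligands, was called (0.96 ± 0.16, adjusted p 0.00128). Of 8 genes for heme transport and breakdown only the lysosomal heme transporter SLC48A1 was called (0.63 ± 0.14, 0.00466), with 13.8 ± 2.27 CPM in high dye, against 8.93 ± 0.740 CPM in low dye. In that list HMOX2 (0.18 ± 0.11, adjusted p 0.26 in edgeR) and BLVRA (0.21 ± 0.20, 0.503) did not pass. Heme synthesis gave 1 call of 8, higher, and mitochondrial iron 1 of 8, lower. Iron regulation and chaperones gave 1 higher and 1 lower of 7 (28.6%). The share called was 11.1% for uptake and transport. It was 12.5% for each of heme transport and breakdown, heme synthesis and mitochondrial iron. All these shares stand beside the same 17.7% of all genes. With the replicate block, heme synthesis, heme transport and breakdown, and iron-sulfur cluster assembly each had 3 higher and 1 lower. Uptake and transport had 2 higher and 1 lower, and iron regulation and chaperones 1 higher and 2 lower. Mitochondrial iron had 0 higher and 2 lower, and these block counts stand beside 37.2% of all genes. In the export axis HFE (0.52 ± 0.20, adjusted p 0.0829) and BMP6 (0.34 ± 0.36, 0.552) did not pass on groups alone, and HFE was called higher with the replicate block (adjusted p 0.0108) and by the trend over the gates (0.0491). The other 5 higher genes, named after their values were seen, were CTSB, TAX1BP1, LAMP1, UROD and FBXL5, with log2 fold changes of 0.42, 0.42, 0.33, 0.33 and 0.25. The 3 lower genes, likewise chosen, were the mitochondrial transporter ABCB10 (-0.35 ± 0.10, adjusted p 0.0275), the iron chaperone PCBP2 (-0.31 ± 0.07, 0.00824) and the glutaredoxin GLRX5 (-0.27 ± 0.09, 0.0363).

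**Figure D4:**
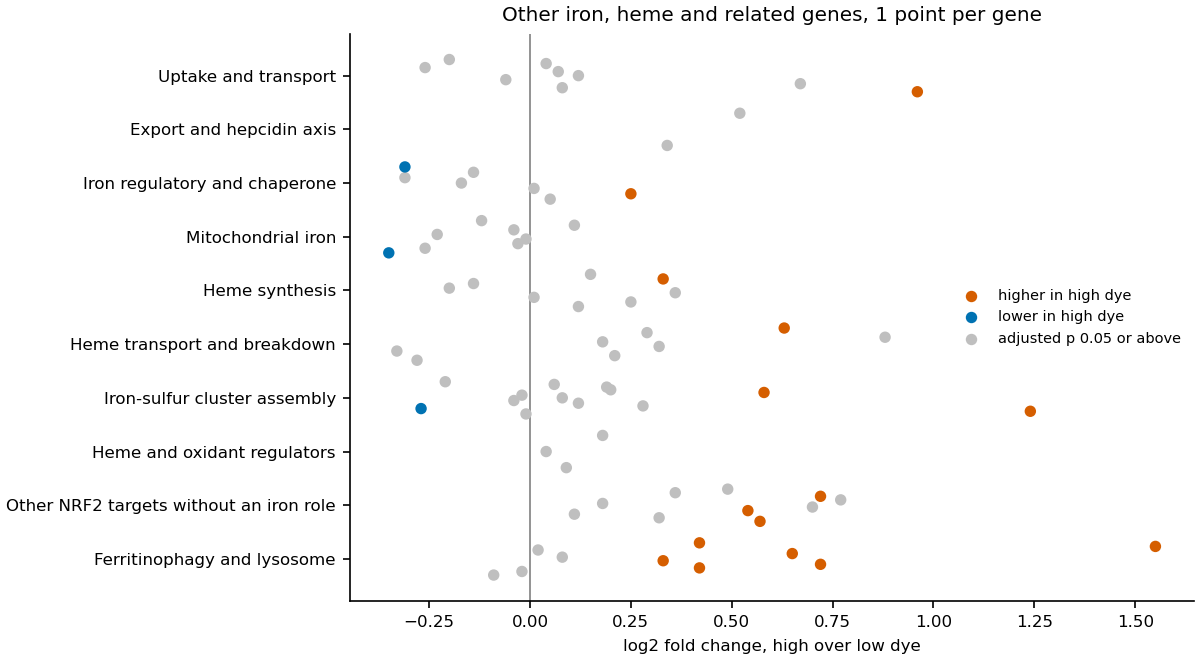
Log2 fold change of high over low dye (x axis) for each of the 78 tested genes of the 10 other iron, heme and related lists (rows), with 1 point per gene, coloured by the edgeR call. Orange points (15 genes, higher) lie mostly in the 2 lowest rows, with 3 among NRF2 targets and 6 in ferritin turnover and the lysosome, with SQSTM1 at 1.55 farthest right, and the 3 blue points (lower) lie between -0.35 and -0.27.

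In the drug set the comparison asked whether inhibition of the histone demethylase LSD1 or the histone methyltransferase DOT1L moved these genes. Under LSD1 inhibition 0 of the 10 genes passed, beside 0.114% of 14002 genes, and DESeq2 called 0 of the 10. An unadjusted p under 0.05 was found for 1 of the 10 genes and 950 of the 14002 genes. The 1 of the 10 was SLC40A1, with 3.15 and 3.56 CPM in the LSD1 inhibition libraries, against 2.36 CPM in DMSO and 1.18 CPM in no drug (log2 fold change 0.93 ± 0.36, adjusted p 0.681 in edgeR). HMOX1 likewise lay higher in both LSD1 inhibition libraries (10.9 and 15.8 CPM) than in DMSO (8.62 CPM) and no drug (10.3 CPM), by 0.51 ± 0.23 (adjusted p 0.774). The ferritin chains overlapped, with FTL at 1307 and 1406 CPM under LSD1 inhibition, against 1262 CPM in DMSO and 1332 CPM in no drug, and FTH1 at 90.4 and 112 CPM, against 82.0 and 95.7 CPM.

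TFRC differed more between replicate numbers than between LSD1 inhibition and the control of the same number. It was at 466 and 187 CPM in LSD1 inhibition replicates 1 and 2, at 507 CPM in DOT1L inhibition replicate 1, at 475 CPM in DMSO replicate 1 and at 254 CPM in no drug replicate 2. Both replicate 2 libraries were therefore low, one treated and one not. The log2 ratio of no drug to DMSO was -0.90, and vehicle and replicate number cannot be told apart in these 2 libraries. LSD1 inhibition against the joint controls gave -0.15 ± 0.44 for TFRC (adjusted p 0.985 in edgeR). Within replicate numbers 1 and 2 the log2 ratio of LSD1 inhibition to the control was -0.03 and -0.44. The ferritin to TFRC log2 ratio spread from 1.58 to 3.02 under LSD1 inhibition, against 1.50 in DMSO and 2.49 in no drug.

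DOT1L inhibition had 1 library, so its difference from DMSO has no replicate check. FTL was at 2081 CPM under DOT1L inhibition and 1262 CPM in DMSO, a log2 ratio of 0.72 (95% interval 0.70 to 0.75), and FTH1 at 126 and 82.0 CPM, a log2 ratio of 0.62 (0.52 to 0.72). SLC40A1 was at 5.04 CPM (88 counts) under DOT1L inhibition and 2.36 CPM (38 counts) in DMSO, a log2 ratio of 1.06 (0.49 to 1.65). These intervals cover counting error only. SLC40A1 was the 1 gene of 10 past 2-fold, beside 5.35% of 14990 genes, and the ferritin ratios lay inside the range from the 5th to the 95th percentile of all genes, -0.53 to 0.92. HMOX1 (0.41, 0.09 to 0.73) and BLVRB (0.38, 0.12 to 0.64) were also higher than in DMSO, and TFRC, SLC11A2, NCOA4, IREB2 and ACO1 lay between -0.09 and 0.12.

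**Figure D5:**
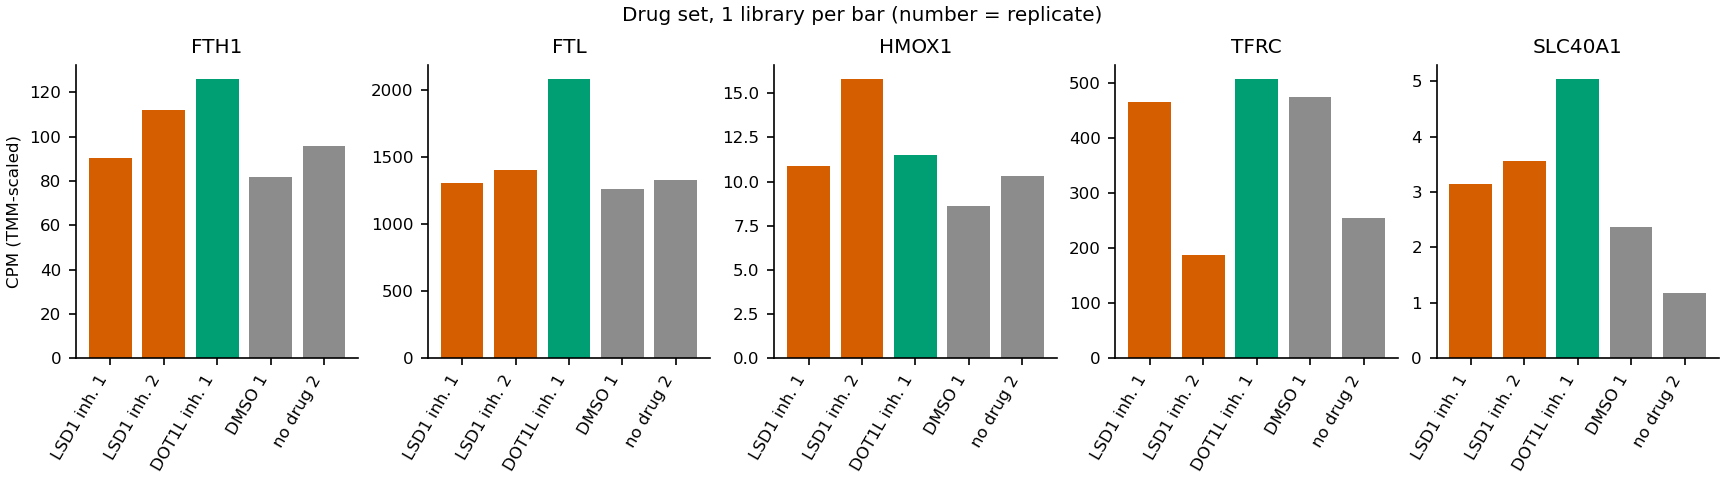
TMM-scaled CPM of FTH1, FTL, HMOX1, TFRC and SLC40A1 (y axes, from 0) in the 5 drug libraries, 1 bar per library, with LSD1 inhibition in orange, DOT1L inhibition in green and the controls in grey. DOT1L inhibition has the highest ferritin and SLC40A1 bars (126, 2081 and 5.04 CPM), and TFRC is low in both replicate 2 libraries (187 and 254 CPM).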

How the data were processed

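The deposited files held raw counts from HTSeq for each Ensembl gene, which the authors had not normalised. Reads were aligned with STAR on hg38 (GRCh38), per the submitters' processing notes, and versions, annotation release and strand setting are not given in the sources used here. Of the reads, 4.33% to 7.72% had no feature and 7.14% to 7.62% were ambiguous, and both classes stayed out of library sizes. The series-wide table repeated the same counts and was not used. Of the genes, 58039 were matched by ID to GENCODE release 29, which gave symbols, coordinates and UTRs.

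Tests used edgeR 4.0.16 in R 4.3.3 (glmQLFit, glmQLFTest, TMM, filterByExpr with minimum count 10 and total 15), Benjamini-Hochberg adjustment over all genes tested, and a threshold of 0.05. The SE is the absolute log2 fold change over the square root of F. All 20 sort libraries shared 1 fit, the trend used the 16 gated libraries, and the 2 LSD1 inhibition libraries were set against DMSO and no drug as 1 control group. DOT1L inhibition against DMSO was described by a log2 ratio with 2 as prior count and no test, and its 95% interval comes from an exact binomial interval on the 2 counts. Sort and drug libraries were scaled separately. Medians and counts describe the gene lists, without a set test.

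Residuals of all 40 same-numbered pairs of sort libraries correlated above 0.1 (0.146 to 0.618), against 16 of 120 pairs with different numbers, so the numbers pair the libraries, and the block is given where it changes a count or the call of a gene named in the text. No libraries of 1 group were copies (smallest chi-square per degree of freedom 7.40). The scripts were tested on simulated counts. Alternatives were DESeq2 1.42.0, RLE factors, no filter, the replicate block, fits on fewer or more libraries and each library left out. Adding pseudogene counts was chosen after seeing the data. The members, the gene lists and the rule that other listed genes are named at an absolute log2 fold change of at least 0.5 were chosen with earlier results of these data known. One listed gene that the rule names is not reported here. The labels call the replicates biological but do not say what separates them.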

Additional observations from a re-analysis of the deposited data

How the results depend on the processing

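The number of the 10 genes called between high and low dye was 5, and 8 with the replicate block, and it ranged from 3 to 6 when 1 library was left out (3 without high dye replicate 3 or low dye replicate 3). For midhigh against midlow dye 0 became 3 with the replicate block and 1 without a filter on low counts. For high dye against ungated 0 became 3 with the block, 3 without the filter and 1 in DESeq2. For low dye against ungated 0 became 1 with the block. For LSD1 inhibition 0 became 5 with the replicate block, although the drug set has only 2 pairs, whose residual correlations amount to a single free value (0.557). The calls under that block were FTH1 (adjusted p 0.0197), HMOX1 (0.00146), SLC40A1 (0.00275) and SLC11A2 (0.0336) higher and TFRC lower (-0.22, adjusted p 0.00161), among 2242 of 14002 genes, and the cause of these changes was not tested. For these counts and the ferritin to TFRC difference, 82 of 92 alternatives kept the direction and the side of the threshold (counts within 1.5 times), as did 779 of 842 alternatives for single genes.

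Values that changed sign were not called, and most were near 0. With 1 library left out, high over low dye ranged from -0.03 to 0.01 for SLC11A2, and midhigh over midlow from -0.03 to 0.04 for SLC11A2 (-0.01 without the filter), -0.03 to 0.08 for ACO1 and -0.06 to 0.04 for IREB2. High dye over ungated ranged from -0.01 to 0.09 for ACO1, and low dye over ungated from -0.77 to 0.08 for HMOX1. LSD1 inhibition over controls ranged from -0.19 to 0.33 for BLVRB, -0.95 to 0.36 for TFRC, -0.05 to 0.04 for NCOA4 and -0.05 to 0.01 for IREB2, in fits where a lone library is assumed to vary like the others.

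Depth limits SLC40A1 most, with 13 to 88 counts per library. The equal spacing of the gates is an assumption, since no dye values are given.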
